A study of Mus musculus with 189 samples.

Results

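Mature mast cells of the mouse peritoneal cavity made up 94 of the 189 single cells in the series, and were taken as all cells labelled Mature mast cell. They came from female C57BL/6 mice, 4 in number, with no genetic change or treatment given in the labels. The sort took live cells that lacked lineage markers and carried both c-Kit and FcεRI, the high-affinity IgE receptor. Within these, the mature gate was low for integrin β7 and high for side scatter. The other 95 cells, basophil-mast cell progenitors (BMCPs) of the same strain and sex, came from the gate high for integrin β7 and low for side scatter, and serve here as a reference only. As c-Kit and FcεRI proteins chose the cells, the presence of their RNA is no finding. Side scatter and integrin β7 set the mature cells apart from the BMCPs. Differences between the groups, also in granule genes, cannot be told apart from what these gates chose. Each cell was sequenced from full-length cDNA made from poly(A) RNA in a well of a plate, and the values are reads per gene. Levels are given as CPM, the count scaled to a common total of reads on genes of that cell, and levels of different genes are compared only as CPM per kilobase of exon.

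Mast cells are long-lived tissue cells of the blood lineage that store preformed mediators in secretory granules. The granules of the connective tissue type, which includes the peritoneal mast cell, are packed with chymases, tryptases and carboxypeptidase A bound to the proteoglycan serglycin and its heparin chains, together with histamine and, in rodents, serotonin. Antigen that crosslinks IgE on FcεRI, or a ligand of the receptor Mrgprb2, triggers their release.

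No cell is tied to a mouse in the labels, so the 94 cells are 1 pooled sample. The results below describe spread over cells, with no p-value and no estimate of differences between animals. The mature mast cells had 561600 to 2152221 reads on genes, with a median of 1255267, and 250 to 5382 reads of ERCC spike-in RNA, synthetic transcripts added to every well. All 94 passed the minimums on reads, genes, mitochondrial share and spike-in share, and 93 of the 95 BMCPs did. With each cell thinned to 500000 reads, the median mature mast cell had 3564.5 genes with a read (range 2136 to 6302), against 3047.5 in the 90 BMCPs deep enough. Without thinning the medians were 4134.5 and 3750.0. 2 runs of columns in the table hold mature mast cells 1 to 47 and 48 to 94. They are not stated to be the plates. Values within each run are given for the most variable genes and for selected pairs.

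All 7 markers of the cell type were present. The chymase gene Cma1 had 57206 CPM in the lowest cell, 91147 in the median cell and 137697 in the highest. The tryptase gene Tpsb2 had 21279, 78244 and 161485 CPM in the same order. Cpa3, which encodes the granule carboxypeptidase, had 28438, 69786 and 113662 CPM. Each of these 3 transcripts was abundant in every cell. The chymase gene Mcpt4 had a median of 25503 CPM and a highest value of 42234, with a lowest of 22.4. Mrgprb1, a receptor gene of the same family as Mrgprb2, had 500.01, 3583 and 7195 CPM. Kit, which encodes the receptor for stem cell factor used in the sort, had 5.07, 822 and 3207 CPM. Fcer1a, the IgE-binding chain of the receptor also used in the sort, had 8.53, 3546 and 12478 CPM. No cell was low in more than 1 of these markers, taking under 100 CPM as low. In the median BMCP, Mcpt4 had 33.4 CPM and Mrgprb1 9.65 CPM, whereas Cma1 had 46716, Tpsb2 53553 and Cpa3 49842 CPM.

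The upstream sequences of 5 granule protease genes are shown because these genes include both the most uniform and the most variable abundant transcripts. Cma1 (chromosome 14, 55941451 to 55944675 in GRCm38, minus strand), Mcpt4 (56059629 to 56062313, minus) and Ctsg, the cathepsin G gene (56099881 to 56102574, minus), lie in a cluster. Prss34, the gene of a tryptase-like serine protease also known from basophils (chromosome 17, 25298394 to 25300165, plus), lies near the tryptase genes Tpsab1 (25343245 to 25345562, minus), Tpsb2 (25366305 to 25369098, plus) and Tpsg1 (25369273 to 25374442, plus). Cpa3 is on chromosome 3 (20215620 to 20242181, minus). Each line gives the 250 bases before the RefSeq transcription start (GRCm38.p6), 5′ to 3′ on the strand of the gene. These stretches are chr14:55944676-55944925 for Cma1, chr14:56062311-56062560 for Mcpt4, chr14:56102575-56102824 for Ctsg, chr3:20242182-20242431 for Cpa3 and chr17:25298144-25298393 for Prss34. Of 7 protease genes looked for, RefSeq entries were found for these 5. Capitals mark words of the kind that GATA factors can bind, on either strand, and TATAAA on the strand of the gene. They are matches of letters, and binding was not measured. The GATA words searched were AGATAA together with the word AGATAG, as well as TGATAA together with the word TGATAG. These motifs do not overlap each other in the 5 sequences.
Cma1: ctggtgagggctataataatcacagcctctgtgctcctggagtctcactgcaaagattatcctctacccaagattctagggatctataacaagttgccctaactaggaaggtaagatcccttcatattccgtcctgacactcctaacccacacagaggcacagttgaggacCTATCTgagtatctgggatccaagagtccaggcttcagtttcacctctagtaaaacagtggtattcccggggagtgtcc
Mcpt4: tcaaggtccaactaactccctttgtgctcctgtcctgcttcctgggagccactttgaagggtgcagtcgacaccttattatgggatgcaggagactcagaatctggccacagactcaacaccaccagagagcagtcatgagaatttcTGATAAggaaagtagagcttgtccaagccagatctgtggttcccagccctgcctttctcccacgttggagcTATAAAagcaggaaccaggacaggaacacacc
Ctsg: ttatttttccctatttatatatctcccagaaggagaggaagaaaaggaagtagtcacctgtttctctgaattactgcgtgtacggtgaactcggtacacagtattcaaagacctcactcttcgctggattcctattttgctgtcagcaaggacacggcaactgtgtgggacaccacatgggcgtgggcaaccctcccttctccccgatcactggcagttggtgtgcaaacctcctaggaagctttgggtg
Cpa3: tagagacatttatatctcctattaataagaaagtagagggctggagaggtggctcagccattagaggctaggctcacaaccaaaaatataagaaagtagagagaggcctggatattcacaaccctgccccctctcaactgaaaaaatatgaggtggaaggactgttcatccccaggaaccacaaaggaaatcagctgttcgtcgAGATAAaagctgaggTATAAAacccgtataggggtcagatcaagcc
Prss34: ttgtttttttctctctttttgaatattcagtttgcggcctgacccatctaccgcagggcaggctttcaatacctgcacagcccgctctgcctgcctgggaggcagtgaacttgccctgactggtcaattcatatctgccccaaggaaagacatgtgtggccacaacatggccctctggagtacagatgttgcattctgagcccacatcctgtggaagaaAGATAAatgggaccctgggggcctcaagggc
A GATA word was present once each in the Cma1, Mcpt4, Cpa3 and Prss34 stretches, beginning 79, 103, 46 and 31 bases before the start, and was not found in the Ctsg stretch. Of 32851 RefSeq promoters of the same length, 26.5% held such a word. TATAAA began 32 bases before the start of Mcpt4 and 31 before that of Cpa3, and 7.59% of the promoters held it. The uniform genes Cma1 and Cpa3 and the variable gene Prss34 held a GATA word, and the variable gene Ctsg did not. Any part of these words in the spread over cells was not tested. Gata2, a transcription factor gene of mast cell identity, had 1.35, 963 and 3444 CPM in the lowest, median and highest mature mast cell.

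A small number of transcripts dominated each mature mast cell. Per kilobase, Cma1 led with a mean of 85265 CPM per kb, followed by Tpsb2 at 50966, Cpa3 at 47632 and Mcpt4 at 21050 CPM per kb. Next came B2m, the light chain of MHC class I, at 9776 CPM per kb. The α and γ chains of FcεRI, Fcer1a and Fcer1g, followed at 3897 and 3298 CPM per kb. The class I heavy chain H2-D1, the lipid carrier Apoe and the lysosomal protease Ctsd completed the leading 10 at 3134, 2660 and 2527 CPM per kb. Places 11 to 20 were taken by Prss34, the protease inhibitor Serpinb1a, the serglycin gene Srgn, Cd63-ps, Actb, mt-Rnr2, Lgals1, Tyrobp, Arhgdib and Itm2b. Cd63-ps is an annotated pseudogene, and 46.9% of its stretches of 50 bases, the length of a read, also occur in other genes, Cd63 among them. For Ctsd and H2-D1 this share was 32.4% and 12.8%. The places of these 3 genes are uncertain for that reason. The list thus holds granule proteases, a protease inhibitor, the proteoglycan core and a lysosomal enzyme beside genes of the IgE receptor and of antigen presentation.

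The 10 leading genes held a median of 30.2% of the reads of a cell, with a range from 16.5% in cell 9 to 40.3%. The 4 leading proteases alone held 26.7% (13.05% to 35.5%). In the BMCPs the same 4 genes held a median of 15.4%, over a far wider range from 0.035% to 32.6%. Cell 9 had 57206 CPM of Cma1, 21279 of Tpsb2 and 28489 of Cpa3, but its Mcpt4 was at 23522 CPM. Over the mean profile, 171 genes accounted for 50% of reads and 4111 for 90%. A mean of at least 1000 CPM was reached by 75 genes, of at least 50 CPM by 3107 and of at least 5 CPM by 9423.

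**Figure D1:**
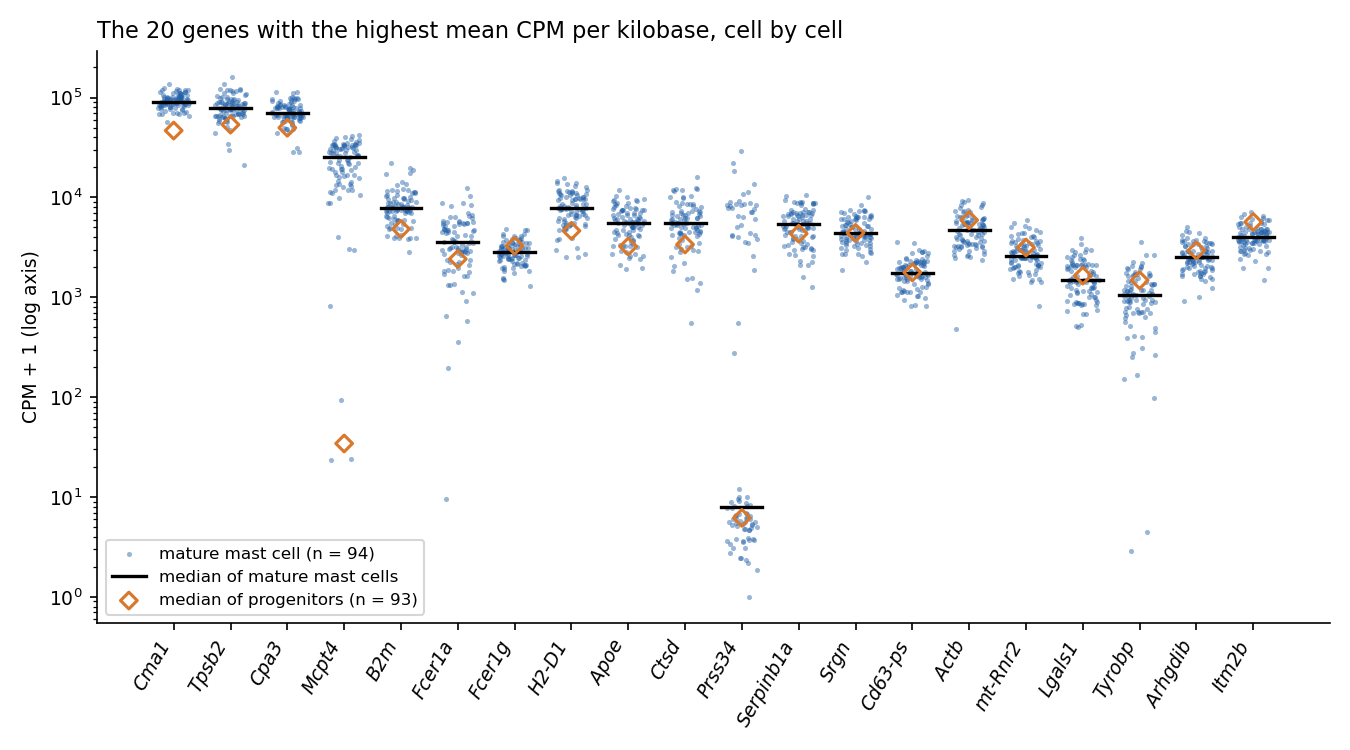
CPM + 1 on a log axis for the 20 genes with the highest mean CPM per kilobase, in order from left to right, with a point for each of the 94 mature mast cells, a bar at their median and a diamond at the median of the 93 BMCPs. The points of Cma1, Tpsb2 and Cpa3 form narrow bands above 21000 CPM, 3 cells of Mcpt4 lie under 100 CPM, and Prss34 splits into cells near its median of 6.93 CPM and 37 cells of at least 100 CPM.

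Relative to BMCPs, 1 of the 20 leading genes had a mean CPM at least 2-fold higher, Mcpt4 with a log2 ratio of 2.03, and 0 were at least 2-fold lower. Of the 10591 genes that reached 5 CPM in one group or the other, 9.25% were at least 2-fold higher in mature mast cells and 19.2% at least 2-fold lower. The median log2 ratio was 0.27 for the 20 genes and -0.25 for all genes. When cells were scaled to spike-in reads instead, the balance turned over. The median of all genes was then 0.62, with 3060 of 10395 genes at least 2-fold higher and 683 lower. Of the 20 leading genes, 9 were then at least 2-fold higher and 0 lower, and 9 others turned from a negative to a positive log2 ratio. Ratios to BMCPs are therefore to be read relative to the median of all genes on the same scale.

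A read of the gene was found in every one of the 94 cells for 158 genes, which together held a median of 46.7% of the reads of a cell. With at least 5 reads required in every cell, 90 genes were left. The 158 genes include the 3 leading proteases, Mcpt4, Fcer1a, Fcer1g, Srgn, Kit, Tpsg1, Tph1 and Hdc. Mcpt4 thus had reads in every cell, although few in some. So few reads do not by themselves show that a cell expresses the gene. In BMCPs Mcpt4 had 13.2 CPM in the lowest cell and 33.4 in the median cell. Prss34, with a median of 6.93 CPM, was read in 93 of the 94 mature mast cells. Where such low reads come from was not tested. Cells 92, 41 and 54 had 22.4, 23.1 and 93.7 CPM of Mcpt4, and cells 23 and 80 had 824 and 2966. These 5 cells were not low in the other markers. Their Cma1 ranged from 101681 to 123713 CPM and their Mrgprb1 from 1852 to 4166 CPM. In cell 35, Fcer1a was at 8.53 CPM while Cma1 was at 98850 and Kit at 511 CPM, although the cell had been sorted as positive for the receptor.

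Cell-to-cell spread was measured as the coefficient of variation (CV, the standard deviation over the 94 cells divided by the mean). Because the CV falls with level, the squared CV was divided by its median among the genes nearest in mean CPM. A ratio of at most 0.5 was called uniform and of at least 2 variable, over the 3107 genes with a mean of at least 50 CPM. The most abundant genes share 1 reference window, which reaches down to genes of 448 CPM, so that Cma1 has no true peers in level. The median CV was 1.86 for genes of 50 to 100 CPM, 1.36 for 100 to 200 CPM, 0.965 for 200 to 500 CPM, 0.659 for 500 to 1000 CPM and 0.484 above that.

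**Figure D2:**
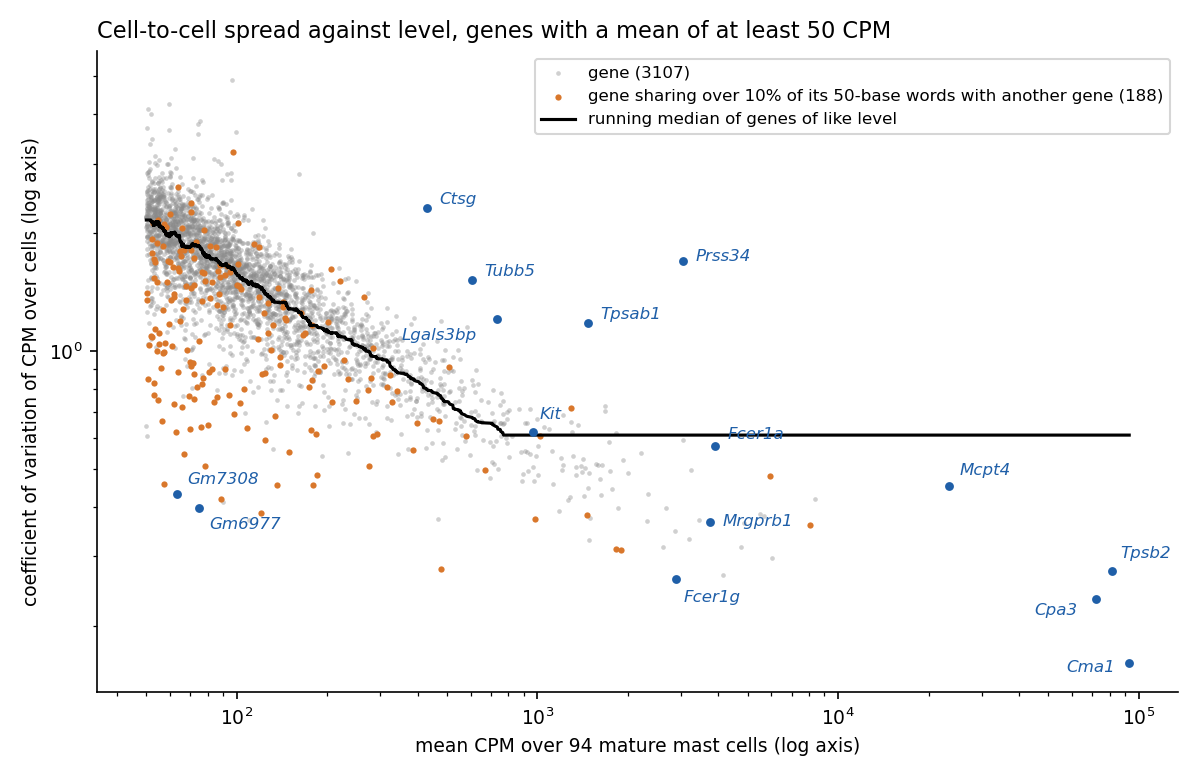
CV of CPM over the 94 mature mast cells against mean CPM for 3107 genes, both on log axes, with the running median as a line, genes that share over 10% of their 50-base words with another gene in orange, and named genes in blue. Cma1, at a CV of 0.160, lies lowest on the right, Ctsg (2.31) and Prss34 (1.70) lie far above the line, and many orange points lie below it.

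The spike-in gave a rough scale for this spread. Each ERCC species was scaled to the ERCC total of its cell (250 to 5382 reads), and genes to the far larger total of reads on genes. The CVs of the 2 kinds are therefore not on equal terms. Of 92 ERCC species, 11 had a mean of at least 20 reads, and 8 of these had a lower CV than genes with like mean reads. The most abundant species had a mean of 388 reads, a CV of 0.671 and a read in 93 of 94 cells. Genes with like mean reads had a median CV of 0.956 and a read in 85 cells. For the 3 species whose CV was higher, the mean was 25.7 to 70.5 reads. The 5 species with means from 37.5 to 70.8 reads had CVs from 1.28 to 3.88, where genes with like mean reads had medians from 2.06 to 2.73.

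The granule proteases that lead the profile were uniform. Cma1 had a CV of 0.160 and a ratio of 0.07, Cpa3 0.234 and 0.15, and Tpsb2 0.276 and 0.20. Mcpt4, with a CV of 0.453 and a ratio of 0.55, was not. Among the 75 genes with a mean of at least 1000 CPM, which include all those called uniform in this paragraph, 31 were uniform. Some other genes of granule and receptor function were also uniform. Fcer1g, the signalling chain of FcεRI, had 1285, 2826 and 4852 CPM in the lowest, median and highest cell and a ratio of 0.18. Srgn, the core protein to which heparin is attached, had 1894, 4412 and 10116 CPM and a ratio of 0.27. Mrgprb1 had a ratio of 0.36. Against them, Fcer1a, Kit, Hdc and Tph1 had ratios of 0.88, 1.04, 1.33 and 0.95, and were called neither uniform nor variable. The shared window reaches down to 448 CPM, so these ratios do not compare genes of equal level. Fcer1a had a CV of 0.575, where genes of at least 1000 CPM had a median of 0.484. Kit had a CV of 0.624, where genes of 500 to 1000 CPM had a median of 0.659. With ERCC scaling the Cma1 ratio was 0.42 and still uniform.

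In all, 275 of the 3107 genes (8.85%) were uniform. The 12 lowest ratios belonged to Gm6977, Gm7308, Gm10080, Myl6, Gm17087, Gm15720, Cma1, Gm6180, Gm15564, H3f3a, Gm4202 and Gng5. Of these, Gm6977, Gm7308, Gm10080, Gm15720, Gm6180 and Gm4202 are processed pseudogenes, copies of a spliced transcript set back into the genome. Gm6977 had 19.1, 70.6 and 170.1 CPM in the lowest, median and highest cell. It was thus present in every cell at a level where the median gene is read in 45 of 94 cells. Gm7308 ranged from 17.3 to 177.04 CPM and was read in every cell too.

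Many of these genes share sequence with another gene, among them Gm6977 with Fth1, Gm7308 and Gm15720 with Calm2, and Gm17087 with Actb. For every gene, the share of its 50-base words, the length of a read, that also occur in a transcript of another gene was computed. Over 1% was shared by 165 of the 275 uniform genes, against 757 of all 3107. Of the 32 pseudogenes in the 3107 genes, 30 were uniform. The share of uniform genes was 4.69% among genes with up to 1% of words shared, 14.1% with 1% to 10%, 39.9% with 10% to 50% and 68.6% with over 50%. Among the leading proteases, Tpsb2 and Cpa3 shared no word with another gene, Cma1 shared 5.38% and Mcpt4 5.48%. With up to 1% shared, a restriction chosen after the values were seen, the lowest ratios after Gm15564 were those of Cpa3, Fcer1g, Itm2b, Tpsb2 and the respiratory chain gene Ndufa3, from 0.15 to 0.21.

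Stretches of 2 genes and their copies show the identity that a read of 50 bases would meet. Each pair gives 100 coding bases of the gene and the stretch of the pseudogene that lines up with it, 5′ to 3′ on the strand of each gene, and capitals mark the bases at which they differ. Calm2 encodes a calmodulin and Fth1 the ferritin heavy chain.
Calm2: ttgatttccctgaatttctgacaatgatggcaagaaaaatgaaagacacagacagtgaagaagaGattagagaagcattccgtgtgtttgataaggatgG
Gm7308: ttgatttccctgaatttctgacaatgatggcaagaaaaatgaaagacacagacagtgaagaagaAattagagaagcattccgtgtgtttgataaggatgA
Fth1: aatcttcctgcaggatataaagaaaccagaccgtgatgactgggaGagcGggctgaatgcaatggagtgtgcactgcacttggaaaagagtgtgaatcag
Gm6977: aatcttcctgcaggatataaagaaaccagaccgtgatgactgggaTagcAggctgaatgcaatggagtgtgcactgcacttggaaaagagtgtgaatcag
In each pair 98 of the 100 bases were identical. The longest identical run was 64 bases for Calm2 and Gm7308 and 50 for Fth1 and Gm6977. The Calm2 stretch joins exons 4 and 5 (chr17:87435207-87435698, minus strand) and that of Fth1 exons 2 and 3 (chr19:9984306-9984637, plus), in GENCODE M21 on GRCm38. The copies are unbroken at chr6:127282220-127282319 (minus) and chrX:90744723-90744822 (minus). A spliced read of the gene and a read of the copy are therefore the same letters over these runs. The deposited table lists 0 reads as aligned to several places in all cells, and how such reads were assigned is not given in the sources used here. Values for these genes are uncertain for that reason.

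At the other end, 70 genes (2.25%) were variable. For 33 of them over 20% of the summed CPM came from 1 cell, which left 37. The 12 highest ratios among those with a read in at least 50% of cells were those of Ctsg, Prss34, Tubb5, Tpsab1, Lgals3bp, Acadl, Prnp, Nfkbia, Mical1, Rab10os, Maea and Crispld2. Leaving out the highest cell of each gene lowered the count of variable genes to 22. Without its highest cell, the ratio of Tubb5 was 1.15, that of Acadl 1.36, of Mical1 1.44, of Maea 1.72 and of Rab10os 1.89. The ratios of Ctsg, Prss34, Tpsab1, Lgals3bp, Prnp, Nfkbia and Crispld2 remained above 2, from 2.25 to 7.28. In cells 1 to 47 and 48 to 94 taken apart, the ratio of Ctsg was 10.5 and 5.29, and that of Prss34 9.996 and 6.56. The ratios of Acadl (4.22 and 1.499), Mical1 (3.00 and 1.33), Maea (3.07 and 1.66) and Rab10os (1.91 and 2.45) passed 2 in 1 run alone. Those of Tpsab1, Lgals3bp, Prnp, Nfkbia and Crispld2 passed it in both. Of the 12 genes, Ctsg, Prss34, Tpsab1 and Lgals3bp had a ratio of at least 2 in the BMCPs as well.

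Granule proteases made up 3 of the 5 genes with the highest ratios. Prss34 had a median of 6.93 CPM and a highest value of 29397, with a CV of 1.70. It reached 100 CPM in 37 of 94 cells (39.4%, exact 95% interval 29.4% to 49.98%), 18 of them among cells 1 to 47 and 19 among cells 48 to 94. A value between 10 and 100 CPM was found in 1 cell, and 35 of the 37 reached 1000 CPM. A cell therefore had either almost no Prss34 reads or a level like that of an abundant gene. Ctsg had a median of 2.92 CPM and a highest value of 6870, with a CV of 2.31, and reached 100 CPM in 43 cells (45.7%, 35.4% to 56.3%). Again 1 cell lay between 10 and 100 CPM. Tpsab1 had 1.83, 881 and 10165 CPM in the lowest, median and highest cell and reached 100 CPM in 73 cells (77.7%, 67.9% to 85.6%). Tpsg1, on the other side of Tpsb2, had 165.9, 1259 and 6417 CPM and exceeded 100 CPM in all 94 cells. The intervals cover counting error over cells only.

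**Figure D3:**
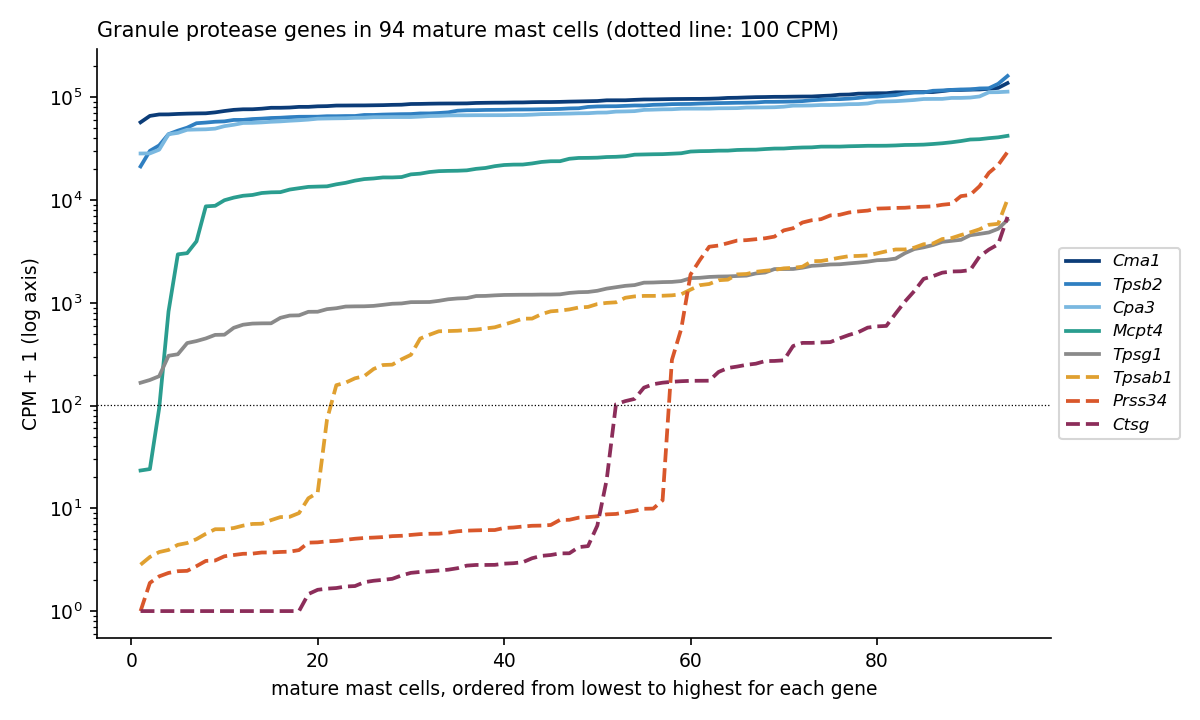
CPM + 1 on a log axis for 8 granule protease genes, with the 94 mature mast cells ordered from lowest to highest separately for each gene and a dotted line at 100 CPM. Cma1, Tpsb2 and Cpa3 are nearly flat, whereas Tpsab1, Prss34 and Ctsg climb steeply and lie above the line in 73, 37 and 43 cells.

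At the cut of 100 CPM, the variable proteases shared cells about as often as their separate frequencies would give. Prss34 and Ctsg both reached 100 CPM in 15 cells, where 16.9 would be met if they were unrelated. For Prss34 and Tpsab1 the count was 28 against 28.7, and for Ctsg and Tpsab1 36 against 33.4. Prss34 and Lgals3bp, the gene of a secreted galectin-binding glycoprotein, were both at 100 CPM in 24 cells against 24.4. The rank correlation (Spearman rho over the 94 cells) was 0.09 for Prss34 and Ctsg, -0.15 for Prss34 and Tpsab1 and 0.28 for Ctsg and Tpsab1. Over all gene pairs described below, the lower and upper quartiles of rho were -0.06 and 0.08. Mcpt8, a basophil granule protease gene, had 0.00, 2.86 and 787 CPM in the lowest, median and highest cell and reached 100 CPM in 6 cells, against a highest BMCP of 36263 CPM.

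Tubb5, a β-tubulin gene, had its highest value of 8604 CPM in cell 70 and its next highest of 2597 CPM in cell 59, against a median of 443. Within cells 1 to 47 its CV was 0.579 and its ratio 0.70. Within cells 48 to 94, which hold both of those cells, its CV was 1.92 and its ratio 8.46. Both cells also led the G2/M phase list, genes of mitosis and its preparation. Cell 59 had all 30 of these genes at 10 CPM or more and cell 70 had 27, against a median of 3, and no other mature mast cell had 10 or more. Among the 93 BMCPs, 1 cell had 10 or more of them, with 23, against a median of 2. Mki67, a marker of cycling cells, was at 217.5 CPM in cell 59 and 787 CPM in cell 70. Top2a, a DNA topoisomerase of dividing cells, was at 1088 and 958 CPM. In cells 59 and 70, Cma1 (92182 and 93670 CPM) and Mcpt4 (20158 and 25738 CPM) were near their medians. Tpsb2 (30150 and 57932 CPM) and Cpa3 (43792 and 30986 CPM) were under their medians of 78244 and 69786 CPM. Cell 59 had 6773 genes detected, the most of all cells, and cell 70 had 5171. Of the 26 list genes that reached a mean of 5 CPM in a group, 16 were at least 2-fold higher than in BMCPs and 1 lower, where 9.25% and 19.2% of all genes were. With spike-in scaling 26 of 28 were higher and 0 lower. Without cells 59 and 70, and with CPM, 4 of 16 were higher and 6 lower. The BMCP with 23 of these genes stayed in the reference, so cells high for the list were left out on the mature side alone.

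Most genes of intermediate level were read at a high level in some cells and hardly at all in others. A gene was called on or off when 20% to 80% of cells had at least 100 CPM and at most 15% lay between 10 and 100 CPM. This applied to 1955 of 3107 genes (62.9%). The share was 58.6% for genes of 50 to 100 CPM, 74.8% for 200 to 500, 9.47% for 500 to 1000 and 2.67% above 1000 CPM. It was highest at 100 to 200 CPM, with 658 of 854 genes. The 2 such genes above 1000 CPM were Prss34 and Tpsab1. Spike-in RNA, added to every well alike, was also missing from part of the cells at low read numbers. The species with mean reads of 134 was read in 70 of 94 cells and that with 47.1 in 46, where genes with like mean reads were read in 57 and 28 cells. The part of read numbers in the on or off genes was not tested.

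The 12 on or off genes with the widest spread on the log2 scale were Prss34, Lhfp, Tubb6, Ctsg, Crispld2, Pja2, Plbd2, Lgals3bp, Ighm, Fam107b, Tor4a and Flcn. Plbd2, a lysosomal hydrolase gene, reached 100 CPM in 37 cells with a median of 0.88 and a highest value of 914 CPM. Its log2 ratio over BMCPs was 1.91. Ighm, the constant region of the immunoglobulin μ chain, reached 100 CPM in 43 cells, with a median of 2.85 and a highest value of 1351 CPM. Most other B cell genes were near 0. Cd79a had at most 2.45 CPM, Igkc at most 5.07 and Cd74 at most 94.8 CPM, while Cd79b reached 100 CPM in 6 cells and H2-Ab1 in 4. In cell 43, with the most Ighm, 1 of the 13 B cell genes reached 10 CPM.

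In the lists of other cell types examined, single genes were seen and whole marker sets were not. Of 14 macrophage genes, 1 had a mean of at least 5 CPM, Cd163 at 7.02, and in the cell highest for the list 1 gene reached 10 CPM. Of 14 T and NK cell genes, Cd4 had a mean of 22.9 CPM, of which most was in cell 65 at 2041 CPM, and Cd3e was at 0 in all cells. No neutrophil or dendritic cell gene reached 10 CPM in the cells highest for those lists. Among 14 mesothelial and stromal genes, Pecam1, which blood cells also express, was the 1 with a mean of at least 5 CPM, at 174.9. The lowest Cma1 level in these leading cells was 68318 CPM. Of the platelet and red cell genes, the integrin gene Itga2b had a mean of 228.8 CPM and reached 100 CPM in 51 cells. In the basophil list, which also holds genes that mast cells express, Prss34, Gata2, Cd200r3 and Il3ra had means of 3059, 1048, 568 and 166.8 CPM. Their part in the variable genes was not tested.

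Gene pairs that vary together were sought among 2135 genes with a mean of at least 50 CPM and a read in at least 50% of cells. Over the 2278045 pairs the median rho was 0.009, and 22 pairs (0.000966%) had a rho of at least 0.6. Each of these 22 pairs shared at least 1 word of 50 bases, and 20 of them contained an annotated pseudogene. The other 2 pairs were Actb with Gm17087 and Tpm3 with Tpm3-rs7. No pair without shared sequence reached 0.6. Cd63, a membrane protein of granules and lysosomes, and Cd63-ps had a rho of 0.98 and shared 387 words. Gstm1 and Gstm2-ps1 had a rho of 0.98, Prdx1 and Gm21399 0.97, Calm2 and Gm7308 0.94, and Fth1 and Gm6977 0.93. All 22 pairs also had a rho of at least 0.6 in the BMCPs, the lowest being 0.76. The 31 pairs sharing more than 100 words had a median rho of 0.79, whereas the 684 pairs sharing 1 to 20 words had a median of 0.01.

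**Figure D4:**
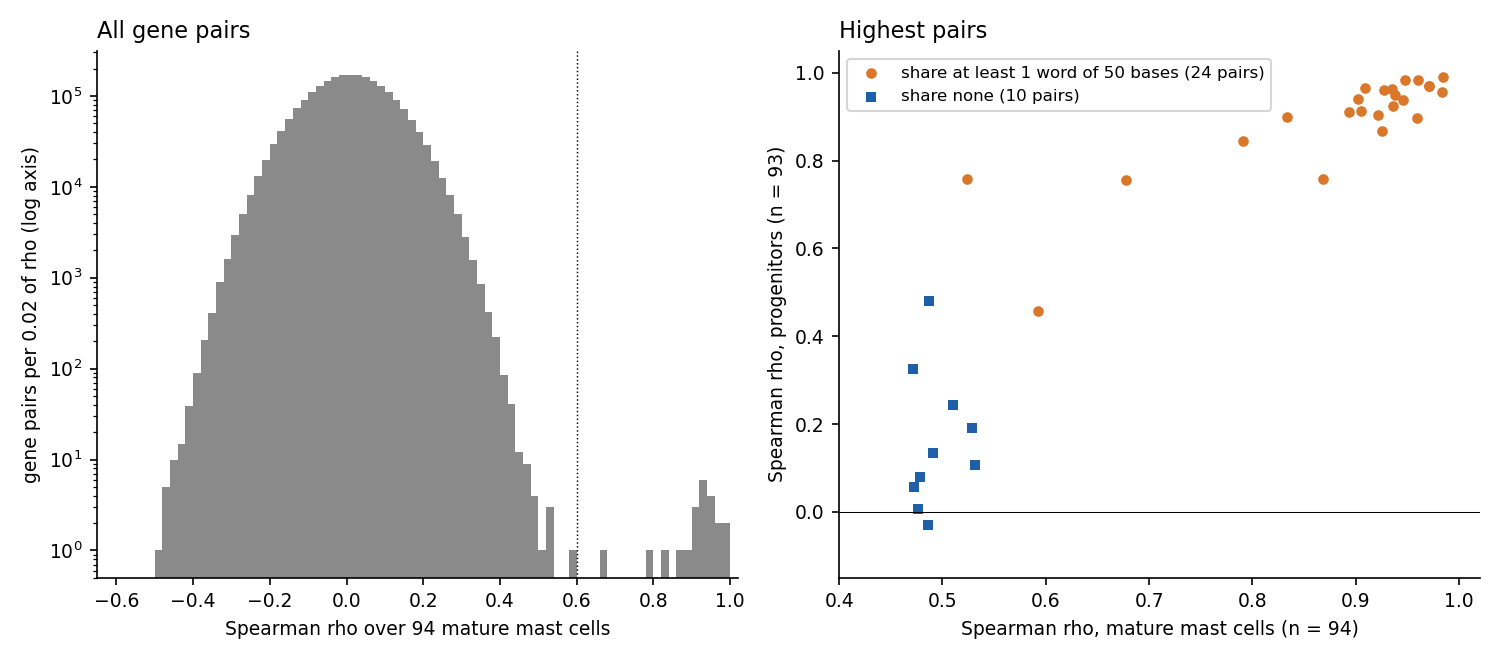
Left, the number of gene pairs per 0.02 of Spearman rho over 94 mature mast cells, on a log axis, with a dotted line at 0.6. Right, rho in mature mast cells against rho in 93 BMCPs for the highest pairs, with 24 pairs that share a word of 50 bases as circles and 10 that share none as squares. The 22 pairs above 0.6 lie apart from all others and hold their place in BMCPs, and the squares lie at 0.47 to 0.53 on the horizontal axis and between -0.03 and 0.48 on the vertical one.

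The class I heavy chain genes H2-K1 and H2-D1, both of the antigen presentation pathway, had a rho of 0.59 (0.56 in cells 1 to 47 and 0.62 in cells 48 to 94). They shared 141 words, so that part of their covariation cannot be told apart from shared reads. Among pairs with no shared word, no overlap and no pseudogene, chosen after the values were seen, the highest rho was 0.53, for Rnf187 and Creb3l1 (0.11 in BMCPs). Tubb6, a β-tubulin gene, and Serpinb1a followed 1700123O20Rik and Tmod3 (0.53) with a rho of 0.51 (0.24 in BMCPs). Tmem258 and Uqcrq had 0.49 (0.13 in BMCPs), and Ybx1 and Cited4 0.49 (0.48 in BMCPs). For Ybx1 and Cited4 the values within cells 1 to 47 and 48 to 94 were 0.34 and 0.17. Of the 10 highest such pairs, 1 had a rho of at least 0.45 in BMCPs. With 2278045 pairs ranked over the same cells, the highest values are selected ones. They were looked at again in the BMCPs and, for some pairs, in each run of columns, which holds part of the same cells. The lowest rho was -0.49, between Rnf4 and the nuclear RNA Malat1 (-0.64 in cells 1 to 47, -0.28 in cells 48 to 94 and -0.05 in BMCPs).

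The leading proteases did not vary together from cell to cell. The 6 pairs among Cma1, Tpsb2, Cpa3 and Mcpt4 had a rho from -0.27 to 0.18 in mature mast cells and from 0.54 to 0.73 in BMCPs. As these genes take a large part of the reads, a high share of 1 of them lowers the CPM of the rest. With the 7 markers left out of the totals the range was -0.10 to 0.39, and with spike-in scaling, which also carries differences in the RNA content of cells and in the spike-in itself, it was 0.62 to 0.87. Cma1 and Mcpt4 were the lowest pair, at -0.27, and they remained the lowest, at -0.10, without the markers in the totals. Cpa3 and Mcpt4 were also negative, at -0.096, and had 0.04 without the markers in the totals. The neighbouring tryptase genes Tpsb2 and Tpsg1, 174 bases apart on the same strand, had a rho of -0.44 (-0.61 in cells 1 to 47, -0.33 in cells 48 to 94), against 0.44 in BMCPs. This pair was chosen after its value was seen. It was -0.39 with size factors, -0.38 without the markers in the totals and 0.18 with spike-in scaling. Srgn and Fcer1a had a rho of 0.45 (0.35 in cells 1 to 47 and 0.57 in cells 48 to 94), against 0.22 in BMCPs.

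On the log2(CPM + 1) scale, the first principal component of the 2135 genes held 3.37% of the variance, and its rank correlation with genes detected per cell was 0.898 in size. Components 2 and 3 held 1.62% and 1.57%, with correlations of 0.063 and 0.064 in size. No component thus held more than a small part of the variation.

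Counts of list genes at least 2-fold higher or lower than in BMCPs are given below beside the 9.25% and 19.2% of all genes, and the median log2 ratio of a list beside -0.25 for all genes. With spike-in scaling these values for all genes are 29.4%, 6.57% and 0.62.

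By function, the granule proteases (19 genes listed) took a median of 28.1% of reads (14.9% to 38.3%), against 16.9% in BMCPs. Of the 17 that reached a mean of 5 CPM in a group, Mcpt4, Tpsab1 and Dpp7 were at least 2-fold higher than in BMCPs. Another 5 were at least 2-fold lower (29.4%), and the median log2 ratio was 0.37. With spike-in scaling 10 were higher and 3 lower. Gzmb, the granzyme B gene of cytotoxic granules, was the lowest of them, with 0.00, 3.28 and 15.9 CPM in the lowest, median and highest mature cell, against a BMCP median of 3872. Mcpt8, Ctsg, Ctss and Mcpt2 were the others, with log2 ratios of -7.00, -1.41, -5.36 and -1.46. Cma2, a chymase gene beside Cma1, had a median of 21.1 CPM and a ratio of 0.28. It shared 39.8% of its 50-base words with other genes, Mcpt4 among them, so its value is uncertain.

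Genes for amine synthesis and storage took 0.738% of reads (0.249% to 1.72%), against 0.390% in BMCPs. Tph1, which makes serotonin, had 211.2, 2709 and 9429 CPM in the lowest, median and highest cell, and Hdc, which makes histamine, 4.78, 1505 and 7364. Slc6a4, the serotonin transporter, had a median of 1011 CPM, against 2.73 in BMCPs. Maob, which breaks down amines, had a median of 702 CPM, against 2.28. The vesicular transporter gene Slc18a2 had 871 and 807 CPM. Of the 12 genes listed, 4 (Tph1, Slc6a4, Maob and Ddc) were at least 2-fold higher by mean CPM, while Gch1 and Hnmt were lower, which is 33.3% and 16.7% of the list, and the median log2 ratio was 0.39. With spike-in scaling 6 of 11 were higher and 0 lower. The serotonin handling genes Slc6a4 and Maob reached 100 CPM in 90 and 84 of 94 mature cells. Ddc, the next enzyme of serotonin synthesis after Tph1, reached it in 19.

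The proteoglycan and heparin genes took 0.800% of reads, with Srgn highest per kilobase (2166 CPM per kb), and Ndst2, a sulfotransferase needed for heparin, at 4.41, 1831 and 4900 CPM. Hs2st1 and Papss2, also of the sulfation pathway, had medians of 143.8 and 549 CPM. Of the 19 measured, 1 was at least 2-fold higher than in BMCPs and 4 lower (5.26% and 21.1%), close to the shares of all genes. With spike-in scaling 6 of 20 were higher and 0 lower. IgE receptor and signalling genes took 1.19% of reads, with the adaptor gene Lat2 at a median of 1301 CPM, the β chain Ms4a2 at 572, Lyn at 228.4 and Btk at 202.5. Syk, the kinase bound by the receptor, had a median of 0.80 CPM and reached 100 CPM in 24 cells. Of 22 measured, 0 were at least 2-fold higher and 3 lower (13.6%), with a median log2 ratio of -0.16. With spike-in scaling 4 were higher and 0 lower. For the eicosanoids, Alox5, the first enzyme of leukotriene synthesis, had a median of 1597 CPM and Hpgds, which makes prostaglandin D2, 413 CPM, while Alox5ap, Lta4h and Ptgs1 had medians under 1 CPM and reached 100 CPM in 26, 28 and 22 cells.

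Among surface receptors, Mrgprb2, through which secretagogues act on mouse mast cells, had 150.6, 1387 and 3876 CPM, the IL-33 receptor Il1rl1 a median of 530 and the Fc receptor Fcgr3 726. The last 2, and Mitf below, were chosen after their values were seen. Itgb7, the integrin chain low on the surface of these cells, had a median of 1096 CPM, against 1225 in BMCPs. Of 29 surface receptors measured, Mrgprb1 and Il6ra were at least 2-fold higher than in BMCPs and 6 lower (6.90% and 20.7%), close to the shares of all genes. With spike-in scaling 4 were higher and 5 lower. The lower ones include Itga4, the integrin chain that pairs with β7, with a mean of 5.21 CPM against 233.04. Among the transcription factors, Id2 led per kilobase with a mean of 378 CPM per kb, followed by Gata2 with 194 CPM per kb. Mitf, needed for mast cell development, had a median of 44.6 CPM. Of 26 measured, 1 (Meis2, log2 ratio 1.49) was at least 2-fold higher than in BMCPs and 8 lower (3.85% and 30.8%), with a median log2 ratio of -0.52. With spike-in scaling 8 of 25 were higher and 1 lower. Immediate early genes, which handling can also induce, took 0.134% of reads (0.002% to 0.673%), with 0 of 19 at least 2-fold higher than in BMCPs and 9 lower (47.4%) and a median log2 ratio of -0.93. With spike-in scaling 5 were higher and 4 lower, and the median was -0.17. Nfkbia, among the variable genes, had 0.00, 298.9 and 3006 CPM. Of the cytokines, the monocyte-attracting Ccl2 had a median of 454 CPM and reached 100 CPM in 81 cells, while Tnf had 0.26 and reached it in 29.

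MHC class I genes took 2.08% of reads, against 1.18% in BMCPs, with B2m at 2842, 7795 and 22350 CPM and H2-D1 at 2516, 7825 and 15587. The lysosomal list, which leaves out the cathepsins counted as granule proteases, took 1.66%. Laptm5, the gene of a lysosomal membrane protein, had 13.2, 3440 and 7091 CPM in the lowest, median and highest cell. Ribosomal protein genes took 0.205% of reads. Of these 88 genes, 85 shared over 1% of their words with another gene. Respiratory chain genes encoded in the nucleus took 0.590%, with 15 of 32 uniform, and the actin cytoskeleton genes 2.13%, with 9 of 32 uniform, where 8.85% of all genes were. Of all 40 and 39 genes of those lists, at any level, 16 and 17 shared over 1% of words. The median rho between genes of a list ran from -0.06 for the cytokines to 0.13 for the mitochondrially encoded genes, against 0.009 for all pairs. The highest rho within a list was 0.59 for MHC class I, 0.50 for the mitochondrially encoded genes and 0.39 for the actin cytoskeleton.

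**Figure D5:**
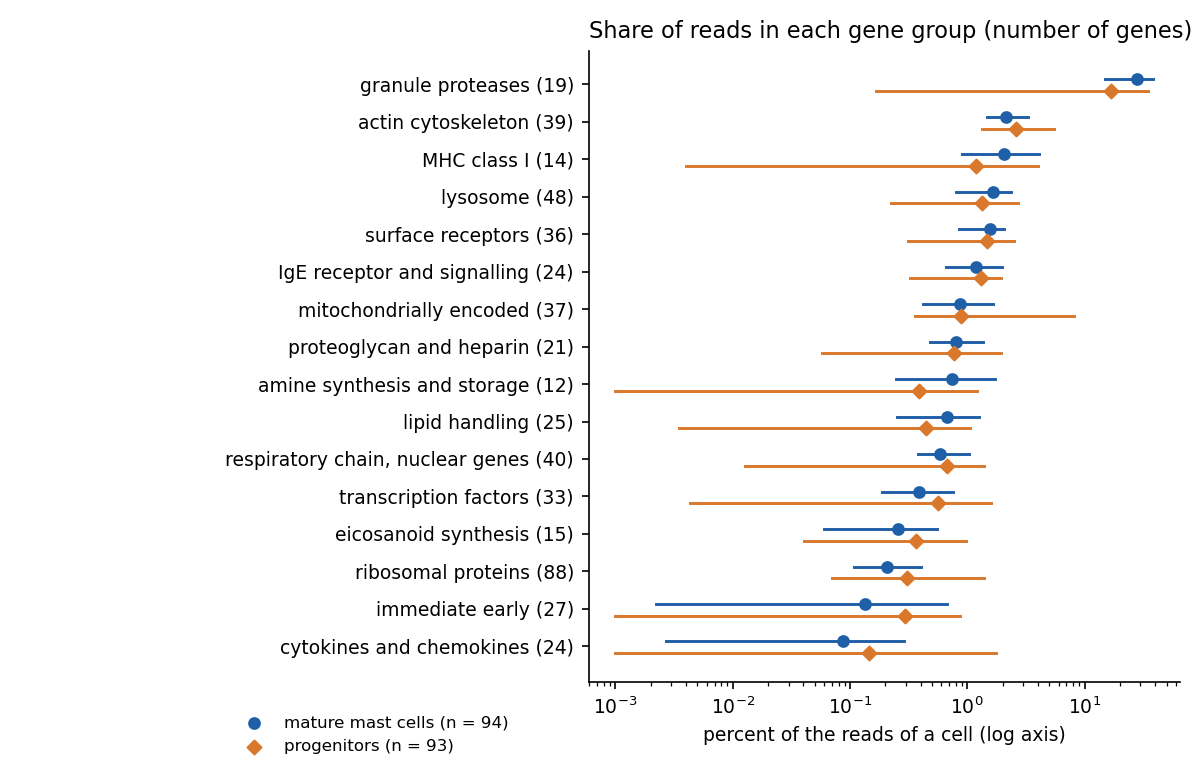
Percent of the reads of a cell in each of 16 gene groups, on a log axis, with a line from the lowest to the highest cell and a symbol at the median for 94 mature mast cells and 93 BMCPs, and values under 0.001% drawn at 0.001%. Granule proteases stand apart at a median of 28.1%, and their line runs from 14.9% to 38.3% in mature mast cells and from 0.168% to 34.7% in BMCPs.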

How the data were processed

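Reads per gene were measured in single cells sorted into 2 plates of 96 wells, with 23 cycles of PCR, 50 base single-end reads and no molecular identifiers, per the labels' protocols. The deposited table held whole-number read counts, which the authors had not normalised. GSNAP 2015-09-29, HTSeq 0.5.3p3 and mm10 are named in the submitters' processing notes. The annotation release and the strand setting are not given in the sources used here, and overlapping genes and near-identical copies are uncertain for that reason.

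Of 46078 gene rows, 45229 were matched to GENCODE M21 on GRCm38. The 849 others held 0.0814% of the reads of mature mast cells. The 92 ERCC rows and 5 summary rows stayed out of totals. In the median mature cell, 12.3% of table reads had no feature, 2.94% were ambiguous and 12.8% were not aligned. Cells needed at least 100000 reads on genes, 1000 genes, at most 20% mitochondrial reads and at most 50% ERCC reads, which left out BMCPs number 6 and 93. Doublets were not called, since cells were sorted singly into wells. Without molecular identifiers, copies made in PCR count as separate reads, and Clopper-Pearson intervals (95%) cover counting error over cells only.

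Ratios of CV squared used a running median over genes nearest in mean CPM. Ratios to BMCPs are log2 of (mean CPM + 1) over (mean CPM + 1). The members of the group and all gene lists, thresholds and rules were chosen with earlier results of these data known. Genes were named as the 7 markers, the 20 highest per kb, the 12 lowest and 12 highest CV ratios, the 12 widest on or off genes, the 15 highest and 5 lowest pairs, members of the protease, amine, proteoglycan, IgE and eicosanoid lists, the 4 with the highest mean CPM of other lists and the 3 highest of other cell types. For the ratio lists, genes with over 20% of their CPM in 1 cell were left out. Pairs of overlapping or adjacent genes were left out. Alternatives were ERCC scaling, size factors, totals without the markers, thinning, other level minimums, Pearson correlations and leaving out the highest cell. Restricting genes or pairs by shared 50-base words, and each run of columns alone, were chosen after seeing the data. Python 3.11.15, numpy 2.4.6, pandas 2.3.3, scipy 1.17.1 and matplotlib 3.10.9 were used, and the spread and pair calculations were tested on simulated data.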

Additional observations from a re-analysis of the deposited data

How the results depend on the processing

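No paired analysis was possible because no cell is tied to a mouse and each group is 1 pooled sample. The share of reads in the 10 leading genes was 30.1% with the longest transcript as length, 30.5% from pooled reads and 30.7% with genes ranked by CPM. Genes detected per cell had a median of 2727.5 at 5 or more reads and 4134.5 without thinning, and 90 genes had at least 5 reads in every cell. With ERCC scaling, 189 genes were variable and 2072 pairs had a rho of at least 0.6. With totals without the 7 markers, 40 pairs did. With a mean of at least 20 CPM, 644 genes were uniform and 151 variable, and with at least 100 CPM, 122 and 25, with 7 pairs. The number of genes tested differs between these settings. Without the highest cell of each gene, 22 genes were variable. With the running median taken over genes with up to 1% of words shared alone, 138 were uniform and 42 variable (110 and 56 of these genes with the median over all genes), and 0 pairs without a shared word reached 0.6. Within cells 1 to 47 alone, 132 genes were variable, 55 pairs reached 0.6 and the Tubb5 ratio was 0.70. Within cells 48 to 94 alone, 36 pairs did. Without a level minimum, 4527 genes were at least 2-fold apart from BMCPs, against 3011. On or off genes numbered 1955, and 1884 to 2472 under the alternatives run. With ERCC scaling the log2 ratio over BMCPs became positive for Fcer1g (0.72), Srgn (0.69), Cd63-ps (0.74), Actb (0.39), mt-Rnr2 (0.61), Lgals1 (0.73), Tyrobp (0.34), Arhgdib (0.54) and Itm2b (0.26). For all these moves, the cause was not tested. Spike-in RNA with few reads was also missing from many cells, and the part of read numbers in the spread at low levels was not tested.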
